A study of Drosophila melanogaster with 7 samples.

Results

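The genes of the core Polycomb repressive complexes were examined in Gro-seq counts from cycle 14 embryos of Drosophila melanogaster. They are the 10 genes with the symbols Pc, ph-p, ph-d, Psc, Su(z)2, Sce, E(z), esc, Su(z)12 and Pcl, and all 10 were found among the 17753 genes listed in both deposited count tables. In Gro-seq, RNA polymerases that are transcribing when nuclei are isolated add labeled nucleotides, so the counts describe ongoing transcription and not RNA stored by the mother. There were 3 ctr and 4 TM libraries, each from a pool of embryos staged by hand.

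TM (triple mutant) embryos came from mothers and fathers homozygous for a knockout of Su(var)3-9. In the maternal germline, dSetDB1 (the gene egg) and G9a were depleted by shRNAs under a maternal tubulin Gal4 driver that acts late in oogenesis, so the depletion is maternal and the embryos keep their own egg and G9a genes. These 3 genes encode the H3K9 methyltransferases of the fly. The ctr embryos are labelled wildtype, and the study's methods name a control TRiP line. Both groups' labels give a cross with the same line, NI746, whose genotype they do not state. In the study's methods, the males of the TM cross carried the driver and were homozygous for the Su(var)3-9 knockout. Whether NI746 is their line, and so whether ctr embryos carry a knockout copy, is not stated. Differences in inserted transgenes and line background cannot be told apart from the loss of the enzymes. Nascent transcription of the knocked down genes did not pass the test for a change, and the log2 fold change, TM over ctr, was 0.13 (SE 0.17, adjusted p = 0.729) for egg and −0.02 (SE 0.10, adjusted p = 0.930) for G9a, by the edgeR test used throughout. An shRNA acts on finished RNA in the mother's germline, so this measure does not check the labels. The knockout could not be checked either. Su(var)3-9 (3R, 15259864 to 15263458, minus strand, dm6) lies whole within eIF2gamma on the same strand, shares 14.8% of its exon bases with it, and had 0 gene-body counts in every library of both groups. Its exon counts were 156, 138 and 135 CPM in ctr and 131, 126, 122 and 119 CPM in TM. Every TM library was below every ctr library, but the fall did not pass the test (log2 fold change −0.20, SE 0.084, adjusted p = 0.180 by edgeR). Nascent RNA of eIF2gamma that crosses these exons cannot be told apart from that of Su(var)3-9.

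As background, Polycomb group proteins keep developmental genes silent in cells where they were not switched on. Polycomb repressive complex PRC2 carries the methyltransferase that writes H3K27me3, and PRC1 holds a reader of that mark and a ubiquitin ligase for histone H2A. In the fly embryo, much of the early supply of these proteins is maternal, and their best known targets are the Hox genes, which set the identity of body segments. H3K27me3 and H3K9me3 mark different forms of repressed chromatin, and the comparison of TM with ctr addresses whether genes of the former are transcribed at other levels where the enzymes of the latter are missing.

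Of the 10 genes, Psc and ph-d passed the test at a lower level in TM, and none passed at a higher level. Over gene bodies, 6.38% of all genes tested passed at a lower level and 4.45% at a higher level. Psc fell by 27.8% and ph-d by 25.8%, and the others measured over gene bodies, all subunits of PRC1 or PRC2 too, did not pass the test. Both genes that fell belong to PRC1 and both have a paralog nearby on the same chromosome, Su(z)2 for Psc and ph-p for ph-d, that was not called. Su(z)12, a PRC2 subunit, had the largest increase among the 10, at 25.3%, and missed the threshold.

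The test was edgeR's quasi-likelihood test on the 10917 genes whose mean over the libraries reached 10 counts, with Benjamini-Hochberg adjustment over all of them, and a gene is called where its adjusted p is under 0.05. Of the Polycomb genes, 9 could be tested over gene bodies and 2 were called, against 10.8% of all genes tested. Both calls were lower in TM, where 6.38% of all genes were called lower. The median log2 fold change was 0.08 over the 9 genes and 0.03 over all genes tested. Of the 9, 6 lay above 0. The gene-body totals of the libraries were 18889493 to 22200059 counts. Counts scaled to a common library size are given as CPM after TMM normalization, where CPM is a gene's count divided by the effective size of its library. These are whole embryos, so fewer nuclei transcribing a gene and less transcription per nucleus cannot be told apart.

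The ctr libraries were closer to each other than the TM libraries, and TM replicate 4 stood apart. Over 3880 highly counted genes, the chi-square per degree of freedom, which is 1 for sampling noise alone, ranged from 20.9 to 26.1 between ctr replicates. Between TM replicates it ranged from 25.4 to 199, and the 3 highest values came from pairs with TM replicate 4. Markers of cycle 14 did not all move with this. Their summed level was highest in TM replicate 1 and lowest in TM replicate 4, and slam was the largest part of it in every library. For slam, the levels were 1990 to 2818 CPM in ctr and 5141, 3348, 3239 and 1352 CPM in TM. The same falling order over TM replicates 1 to 4 was seen for nullo (69.1, 23.5, 19.1 and 4.05 CPM), bnk (661, 433, 415 and 213 CPM) and hb (1088, 868, 846 and 536 CPM). It was not seen for eve, ftz and Kr. By contrast, ftz was lower in every TM library than in any ctr library, and lowest in TM replicate 2. Among the 8 markers of that stage (slam, nullo, bnk, Sry-alpha, eve, ftz, Kr and hb), the summed level was 5596 to 6850 CPM in ctr, and in TM it was 9858 CPM in replicate 1, 7015 CPM in replicate 2, 7396 CPM in replicate 3 and 4310 CPM in replicate 4. Of these 8, 7 were tested and none was called by edgeR or by DESeq2, 1 at an unadjusted p under 0.05 by edgeR, and Sry-alpha had 0 gene-body counts. Among 16 markers of other stages and tissues, 2 were called higher (nSyb and Hml, the latter with 0 counts in every ctr library and at most 47 in TM), and NimC1 had 0 counts. Their summed level was 483 to 512 CPM in ctr and 490.1 to 548 CPM in TM. Most of that sum was elav, at 408 to 413 CPM in ctr and 393 to 461 CPM in TM. The part of developmental timing in the results was not tested. Results that depend on TM replicate 4 are given with and without it.

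The chromatin-bound reader of PRC1 is Pc, whose chromodomain binds H3K27me3. It had 164, 160.3 and 159 CPM in ctr and 168, 194, 169 and 149 CPM in TM. The ctr values lay within the range of the TM values, and the log2 fold change was 0.08 (SE 0.093, 95% interval −0.12 to 0.28, adjusted p = 0.672 by edgeR). Sce, which encodes the ubiquitin ligase of PRC1, was nearly the same in the ctr libraries, at 65.9, 65.7 and 65.3 CPM. In TM it had 52.5, 53.9, 70.5 and 69.3 CPM, with replicates 1 and 2 below every ctr library and replicates 3 and 4 above. Its log2 fold change was −0.09 (95% interval −0.37 to 0.18, adjusted p = 0.736 by edgeR).

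Psc encodes a RING finger protein that partners Sce, and it fell furthest of the 9 genes measured over gene bodies, while over exons ph-d fell further. It lies on the minus strand of 2R from 12965997 to 12980994 in the dm6 genome. Its levels were 1045, 969 and 984 CPM in ctr and 825, 734, 689 and 637 CPM in TM. Every TM library was below every ctr library. The log2 fold change was −0.47 (SE 0.091, 95% interval −0.66 to −0.28, adjusted p = 0.0032 by edgeR), and it kept its call in each of 15 other settings, with adjusted p-values of 4.1e-05 to 0.0355. Su(z)2 encodes a protein related to Psc that can stand in for part of its function, and lies on the plus strand of the same arm, from 12996501 to 13007911. It was far lower, at 31.8, 36.6 and 43.0 CPM in ctr and 43.1, 47.2, 36.5 and 39.2 CPM in TM. These groups overlap, with a log2 fold change of 0.16 (SE 0.16, 95% interval −0.17 to 0.49, adjusted p = 0.594 by edgeR).

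Polyhomeotic, the PRC1 subunit with a SAM domain through which complexes join, is encoded by the adjacent genes ph-p and ph-d on the minus strand of the X chromosome. Their gene bodies run from 2126210 to 2138371 for ph-p and from 2115727 to 2123286 for ph-d in dm6, with 2924 bases between them. The ph-d gene had 237, 224 and 208 CPM in ctr and 177, 157, 182 and 145 CPM in TM, so the groups did not overlap. Its log2 fold change was −0.43 (SE 0.094, 95% interval −0.63 to −0.23, adjusted p = 0.0066 by edgeR). This call was lost without ctr replicate 1, the highest library, where the log2 fold change was −0.39 and the adjusted p 0.0541. For ph-p the levels were 513, 509 and 540.1 CPM in ctr, and 559, 549, 592 and 437 CPM in TM. Here 3 TM libraries were above all ctr libraries and replicate 4 was below them. The log2 fold change of ph-p was 0.04 (SE 0.097, 95% interval −0.17 to 0.24, adjusted p = 0.869 by edgeR). Of the 9 genes, Psc and ph-d are the 2 whose groups did not overlap, where 23.4% of all genes tested had groups that did not overlap.

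**Figure D1:**
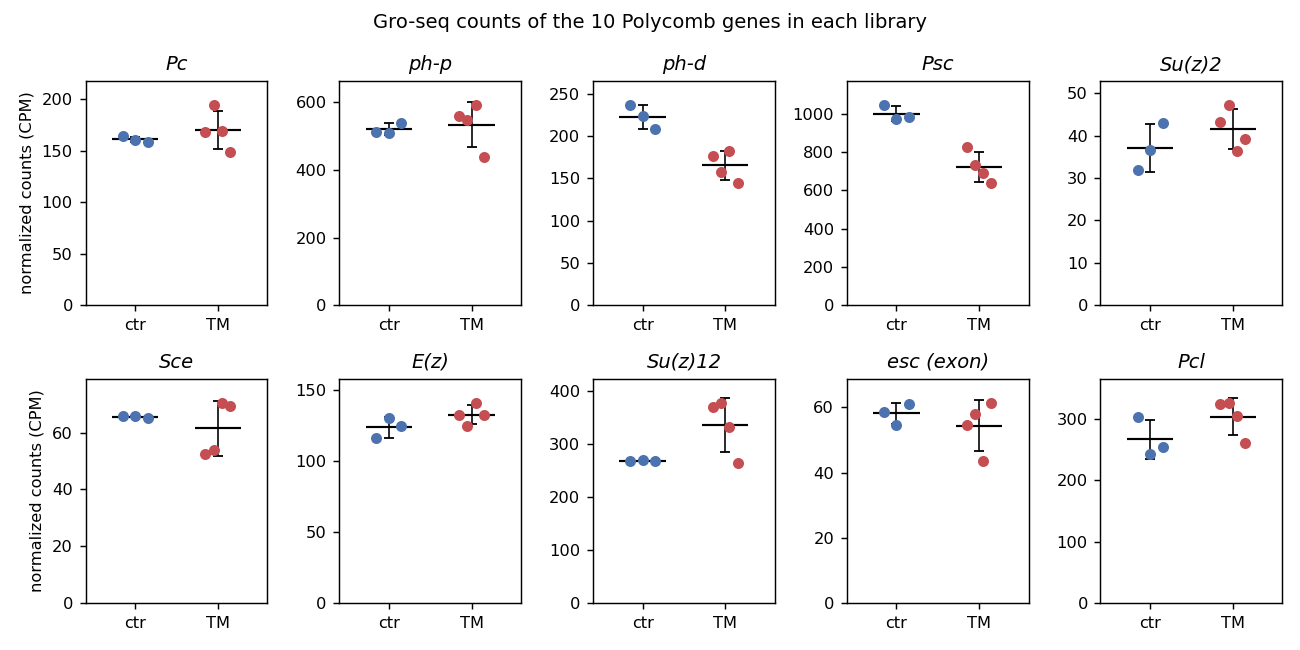
Normalized Gro-seq counts (CPM, y axis from 0) of the 10 genes in each of 3 ctr (blue) and 4 TM (red) libraries, over gene bodies except for esc, which is shown over exons. Bars give the mean and SD of each group. All 4 TM points lie below all ctr points for Psc and ph-d, and the groups overlap for the other 8 genes.

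The counts of ph-p and ph-d are not fully separate, because the genes arose by duplication and still share sequence. Of the 30-base words in the ph-d gene body, 33.7% also occur in ph-p, and 20.9% of the words of ph-p occur in ph-d. The longest run that is the same in both is 528 bases long, all of it coding, at X from 2130593 to 2131120 in ph-p and from 2120689 to 2121216 in ph-d. Its first 90 bases, read 5′ to 3′ along the transcripts, show what a read from either gene would carry, and no letter in them tells the genes apart.
ph-p and ph-d, shared: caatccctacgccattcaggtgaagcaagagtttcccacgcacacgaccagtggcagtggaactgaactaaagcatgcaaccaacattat
Reads within such runs map equally well to both genes. The authors' gene-body counts drop alignments of mapping quality under 3, so reads from those stretches are mostly lost there. Their exon counts share reads that map to several places, so in the exon counts the split between the paralogs is uncertain in those stretches. With the counts of both genes summed to 1 gene, an alternative chosen after seeing the data, the levels were 749.8, 733 and 749 CPM in ctr and 736, 706, 774 and 582 CPM in TM. The sum did not pass the test, with a log2 fold change of −0.09 (SE 0.094, 95% interval −0.29 to 0.11, adjusted p = 0.635 by edgeR). Most of the sum came from ph-p, so a fall of ph-d alone would move it little. The sum therefore does not decide whether ph-d fell. TM replicates 2 and 4 were below every ctr library and replicate 3 was above them.

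The regions upstream of the outermost annotated starts of the paralogs are unlike each other, in contrast to their coding runs. Of annotated transcript starts, ph-p has 3 and ph-d, Psc, Su(z)2 and E(z) have 2 each, and only the outermost was read for every gene. No 12-base word was shared between the promoters of ph-p and ph-d, taken as 250 bases before to 50 bases after that start. They are shown for the 150 bases upstream of each start, 5′ to 3′ on the transcribed strand, read from the RefSeq Release 6 (dm6) genome at X from 2138372 to 2138521 for ph-p and from 2123287 to 2123436 for ph-d. Capitals mark matches to GAGAG, the core bound by GAGA factor, or to GCCAT, the core bound by Pho, on either strand.
ph-p: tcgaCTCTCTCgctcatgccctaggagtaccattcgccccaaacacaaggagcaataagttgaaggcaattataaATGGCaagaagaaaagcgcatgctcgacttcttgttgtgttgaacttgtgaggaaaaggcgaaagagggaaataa
ph-d: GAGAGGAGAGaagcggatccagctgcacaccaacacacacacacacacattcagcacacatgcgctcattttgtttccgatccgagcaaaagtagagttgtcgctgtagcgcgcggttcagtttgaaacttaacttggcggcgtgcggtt
Upstream of ph-p, the capitals are a pair of overlapping matches to GAGAG on the other strand and a match to GCCAT on the other strand. Upstream of ph-d, they are a pair of adjoining matches to the former. Among the 10 genes, GAGAG occurred in the promoters of 5 (ph-p, ph-d, Psc, Su(z)2 and E(z)) and in 29.5% of all 17676 promoters, and was present in 6 overlapping or separate places for Su(z)2, the most of the 10. GCCAT occurred in 6 (ph-p, Psc, Sce, esc, Su(z)12 and Pcl) and in 40.9% of all promoters. The site of the early activator Zelda (CAGGTAG) occurred in none of the 10 and in 1.62% of all promoters, and that of the factor DREF (TATCGATA) in none of the 10 and in 7.60% of all. No match of a motif overlapped a match of another in these promoters, and overlapping matches of the same motif were counted separately. Psc and ph-d, which were called, and ph-p and Su(z)2, which were not, all hold GAGAG.

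Within each library, the ratio of paralogs does not depend on how libraries are scaled. The ratio of ph-p to ph-d was 2.17, 2.27 and 2.59 in ctr and 3.16, 3.49, 3.25 and 3.01 in TM. Every TM ratio was above every ctr ratio, a difference of 0.46 on the log2 scale (exact two-sided permutation test, p = 0.0286, 0.0429 after adjustment over 3 pairs). The ratio of Psc to Su(z)2 was 32.7, 26.4 and 22.8 in ctr and 19.1, 15.5, 18.8 and 16.2 in TM, so its TM values were all lower, by 0.64 on the log2 scale (p = 0.0286 by the same exact test, 0.0429 adjusted). With 35 ways to divide the libraries, 0.0286 is the smallest p the design allows, and neither ratio is separate support, since the Psc ratio contains the fall of Psc and the ph ratio that of ph-d given above. For esc and its paralog escl, over exons, the ratios were 2.72, 2.49 and 4.01 in ctr and 2.93, 2.73, 2.25 and 2.66 in TM, with overlapping groups (log2 difference −0.19, exact permutation p = 0.457, adjusted 0.457). Without any 1 library this test cannot reach 0.05 after adjustment.

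**Figure D2:**
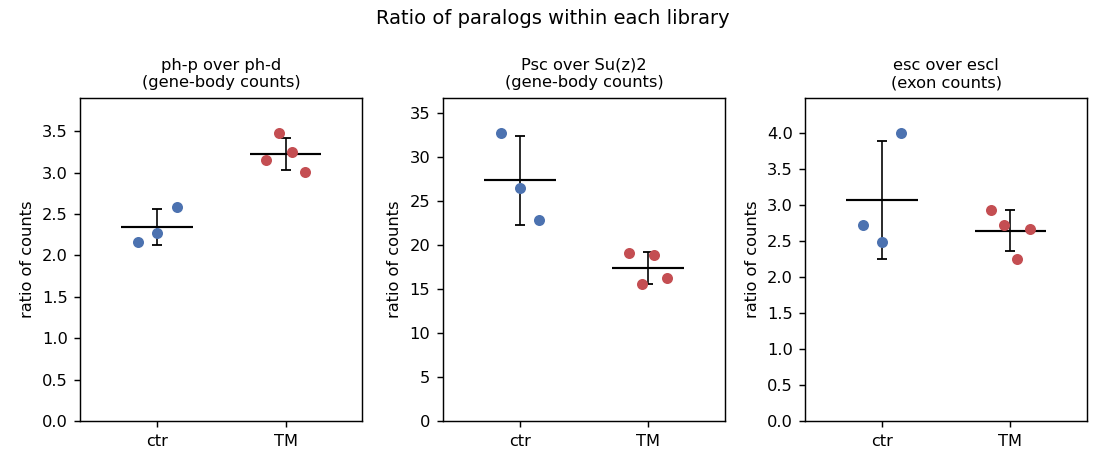
Ratio of the counts of a gene to those of its paralog within each library (y axis from 0, no unit), for ph-p over ph-d and Psc over Su(z)2 in gene-body counts and esc over escl in exon counts. Points are libraries, bars the mean and SD of 3 ctr and 4 TM libraries. The first pair of panels shows groups that do not overlap, with the ph ratio higher and the Psc ratio lower in TM, and the last shows overlap.

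In PRC2, the methyltransferase gene E(z) did not pass the test. It had 116, 131 and 125 CPM in ctr and 133, 125, 141 and 132 CPM in TM, and the groups overlap. Its log2 fold change was 0.10 (SE 0.089, 95% interval −0.09 to 0.29, adjusted p = 0.549 by edgeR). Su(z)12 encodes a zinc finger subunit that holds the complex together. It stood at 268, 270.0 and 269 CPM in ctr and at 370.3, 379, 333 and 266 CPM in TM. TM replicates 1 to 3 were all above ctr, while replicate 4 lay just below the lowest ctr library. The log2 fold change was 0.33 (SE 0.11, 95% interval 0.10 to 0.55), and the adjusted p of 0.0624 by edgeR did not pass. Without TM replicate 4 it was 0.42 (adjusted p = 0.0005 by edgeR), and DESeq2 over all libraries gave an adjusted p of 0.0410. Pcl, an accessory subunit that aids binding of PRC2 to chromatin, had 303, 244 and 254 CPM in ctr and 324, 327, 305 and 261 CPM in TM. Its groups overlap through ctr replicate 1 and TM replicate 4, with a log2 fold change of 0.19 (SE 0.10, 95% interval −0.02 to 0.40, adjusted p = 0.270 by edgeR). Leaving out TM replicate 4 gave 0.25 (adjusted p = 0.0463 by edgeR).

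The WD repeat subunit of PRC2 that reads H3K27me3 is encoded by esc, and it could not be measured over its gene body. All 2202 bases of esc (2L, 11827204 to 11829405, minus strand, dm6) lie within Pde1c on the same strand, and esc had 0 gene-body counts in all 7 libraries. Its host Pde1c had 98.7 ± 2.99 CPM (SD, n = 3) in ctr and 103 ± 7.07 CPM (SD, n = 4) in TM. Over exons, esc had 1339 to 2044 counts per library, and its levels were 58.6, 54.7 and 61.1 CPM in ctr and 54.5, 58.0, 43.4 and 61.4 CPM in TM. TM replicate 3 was the lowest and the groups overlap. The log2 fold change was −0.10 (SE 0.12, 95% interval −0.34 to 0.15, adjusted p = 0.707 by edgeR). The paralog escl had 15.7, 16.3 and 10.3 CPM over its gene body in ctr and 17.1, 13.3, 13.3 and 18.5 CPM in TM, with overlapping groups and a log2 fold change of 0.15 (adjusted p = 0.795 by edgeR).

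The exon counts come from the same libraries counted in another way, so they are not a second measurement. In them, 14021 genes were tested and 6.96% were called, with a median log2 fold change of 0.02, and 2 of the 10 Polycomb genes were called, again ph-d and Psc. Exon levels of ph-d were 128, 125 and 110 CPM in ctr and 93.4, 86.0, 88.1 and 76.0 CPM in TM (log2 fold change −0.49, SE 0.093, adjusted p = 0.0044 by edgeR). This held in the 16 other settings that keep the paralogs apart. The exon levels of Psc were 328, 292 and 302 CPM in ctr and 269, 243, 233 and 227 CPM in TM. Its log2 fold change was −0.34 (SE 0.086, adjusted p = 0.0253 by edgeR). The Psc exon call was lost without ctr replicate 1 (adjusted p = 0.145), ctr replicate 2 (0.0567), ctr replicate 3 (0.0776), TM replicate 2 (0.0803) or TM replicate 3 (0.0816), all by edgeR, with log2 fold changes between −0.29 and −0.38. Su(z)12 had 0.33 over exons (adjusted p = 0.0773 by edgeR). The 7 others ranged from −0.13 for Sce to 0.26 for Su(z)2, and Pc was −0.03 where its gene-body value was 0.08.

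**Figure D3:**
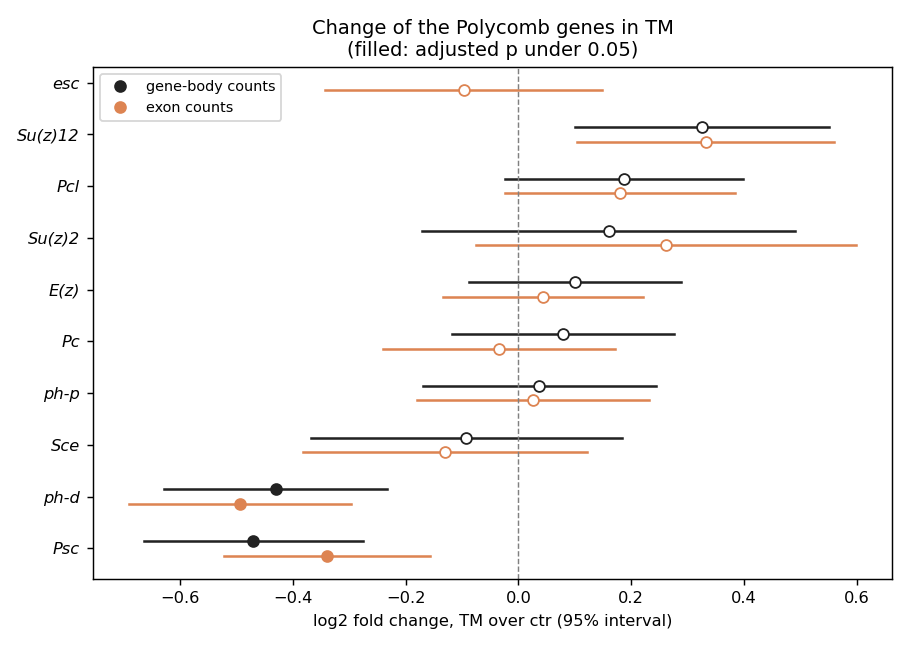
Log2 fold change, TM over ctr, with 95% intervals for the 10 genes in gene-body counts (black) and exon counts (orange), filled where the adjusted p is under 0.05. Only Psc, at −0.47 over gene bodies, and ph-d, at −0.43, are filled, in both kinds of counts. The Su(z)12 intervals lie above 0 but its adjusted p-values of 0.0624 and 0.0773 do not pass.

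Levels of different genes were compared per length, in CPM per kb of gene body. In ctr, Psc was the highest at 66.6 ± 2.66 (SD, n = 3), above 92.9% of all genes tested. Pcl followed at 58.5 ± 6.93, then Su(z)12 at 51.5 ± 0.19, ph-p at 42.8 ± 1.39, Sce at 41.0 ± 0.19, E(z) at 34.8 ± 2.05, ph-d at 29.5 ± 1.87, Pc at 13.6 ± 0.23 and Su(z)2 at 3.26 ± 0.49 CPM per kb. Su(z)2 stood above 34.1% of the genes tested, and is the only one of the 9 under the middle of them. Of neighbours in this order, only Psc and Pcl had overlapping ranges in ctr. In TM, Psc stood at 48.1 ± 5.33 CPM per kb (SD, n = 4), under Pcl at 66.6 ± 6.67 and Su(z)12 at 64.5 ± 9.87. Every TM library was lower for Psc than for Pcl. Of neighbours in the ctr order, the ranges in TM overlapped for Pcl and Su(z)12, ph-p and Sce, and Sce and E(z).

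The low place of Pc in that order depended on whether repeated sequence in its gene body was counted as length. A block of 9104 bases of its 11883-base gene body (3L, 21306138 to 21318020, minus strand, dm6), from 21306200 to 21315303, consists of 30-base words that also occur elsewhere in the genome, and it holds 0 bases of Pc exons. In all, 76.3% of the words of Pc were of this kind. Exons make up 20.7% of the gene body, and the exon counts of Pc were 92.2% to 105% of its gene-body counts. For Psc, where exons make up 42.2% and 0.053% of the words are repeated, the exon counts were 47.6% to 57.0% of the gene-body counts. Genes with few or no repeated words could also exceed their exon share. For E(z), with 74.9% exons and 0% repeated words, the exon counts were 120% to 135% of the gene-body counts. For Su(z)2, with 58.9% and 0.37%, they were 107% to 145%. The value of Pc does not by itself show that counts were lost from its repeated block. As an alternative chosen after seeing the data, the same gene-body counts were divided by the length in positions whose 30-base word occurs at 1 place. This takes all counts to come from such positions, which was not measured. Pc then had 57.4 ± 0.97 CPM per kb in ctr (SD, n = 3) and was the fourth of the 9, close to Pcl at 58.9 ± 6.97. On that scale ph-p rose to 64.4 ± 2.09, with a range that overlapped that of Psc at 66.8 ± 2.67, while ph-d stood at 44.7 ± 2.83 and Su(z)2 was the lowest, at 3.28 ± 0.50 CPM per kb. Over exons, per kb of exon, Pc had 41.4 ± 2.40 and esc 34.1 ± 1.90 CPM per kb in ctr.

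**Figure D4:**
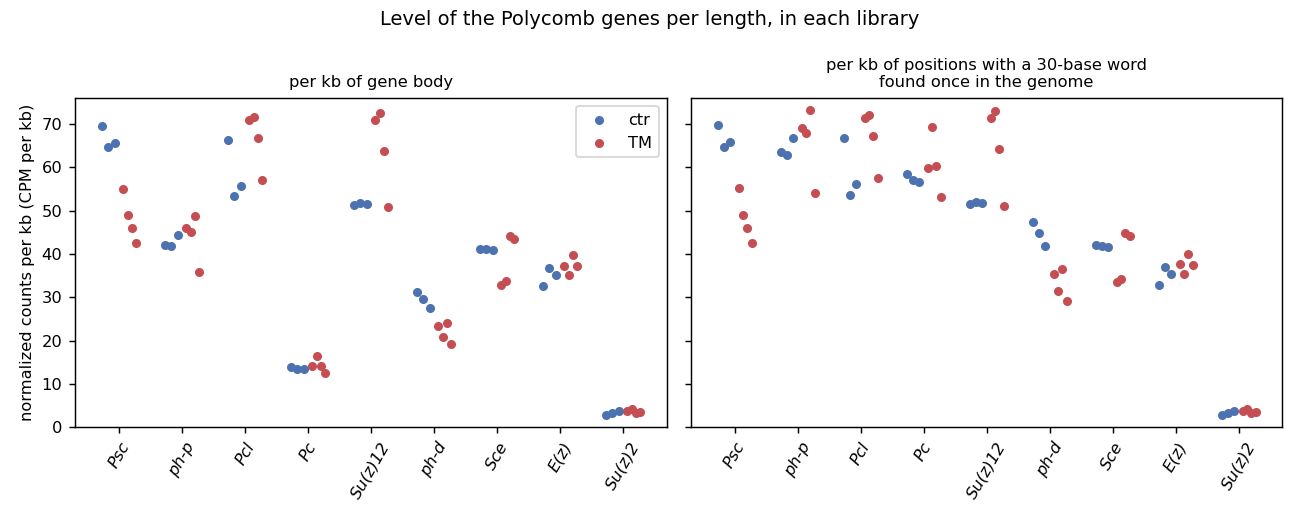
Level of 9 genes in each library (ctr blue, TM red) per kb of gene body (left) and per kb of positions whose 30-base word occurs once in the genome (right), in CPM per kb on an axis from 0. Pc moves from 13.6 to 57.4 CPM per kb in ctr between the panels, and Su(z)2 stays near 3 in both.

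The neighbours of the genes that fell did not pass the test. The nearest tested genes beside Psc were CG13321 (log2 fold change 0.78, SE 0.52, adjusted p = 0.398 by edgeR) and lncRNA:CR44339 (0.11, SE 0.78, adjusted p = 0.959). Beside ph-d, on the side away from ph-p, it was csw (0.43, SE 0.81, adjusted p = 0.810). These SEs are far above those of Psc (0.091) and ph-d (0.094), so the values do not show whether the falls are confined to these genes. Of the genes next to the other members, CG11309, which lies 1480 bases from Pc, was higher in TM (log2 fold change 1.55, SE 0.33, adjusted p = 0.0060 by edgeR), while Pc itself was not called. The pattern of Psc over the 7 libraries was most like that of stwl (Pearson r of log2 CPM 0.997), CG7191 (0.995) and Gli (0.984) among 8027 genes, and all of these were lower in TM, with log2 fold changes of −0.67, −1.93 and −0.57. The libraries of these correlations share their depth and their split into ctr and TM. As these genes were picked for following Psc, which fell in TM, their direction follows from the choice and is not a separate result.

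Of 23 other genes of the Polycomb group, in 3 lists, 2 were called, both lower, with a median log2 fold change of −0.10. That is near the share of all genes tested, 10.8% called and 6.38% called lower. Both are recruiters, proteins that bind DNA at Polycomb response elements. For cg, a zinc finger gene, the levels were 507, 528 and 478 CPM in ctr and 267, 274, 282 and 328 CPM in TM (log2 fold change −0.81, SE 0.087, adjusted p = 1.7e-05 by edgeR). For pho, the DNA-binding subunit of PhoRC, they were 226, 209 and 191 CPM in ctr and 154, 170, 175 and 167 CPM in TM (−0.33, adjusted p = 0.0224 by edgeR). In both, all TM libraries were below all ctr libraries. The pho call was lost with library totals alone (adjusted p = 0.0680) and without ctr replicate 1 (0.139), ctr replicate 2 (0.0874) or TM replicate 2 (0.0540), by edgeR. The other 8 recruiters, all 4 accessory genes of PRC2 and all 9 genes of the list of PRC1 accessory, PR-DUB and other Polycomb group genes were not called over gene bodies. At an unadjusted p under 0.05, edgeR gave 0 of the 4 and 2 of the 9, and DESeq2 called 0 of both lists. Over exons, jing (−0.31) of the PRC2 list and sxc (−0.45) of the PRC1 list were called lower, where 3.85% of all genes were called lower. The cg call held at −0.83, and pho, at −0.08 with overlapping groups, was not called (adjusted p = 0.804 by edgeR).

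Trithorax group genes, whose products keep target genes active, were called lower in 5 of 27 cases and higher in none, with a median of −0.09, where 6.38% of all genes tested were called lower. The Mediator gene skd had 924, 929 and 916 CPM in ctr and 538, 652, 645 and 718 CPM in TM, and its log2 fold change was −0.53 (adjusted p = 0.0013 by edgeR). The SWI/SNF ATPase gene brm had 224, 261 and 234 CPM in ctr and 171, 172, 174 and 179 CPM in TM, at −0.46 (adjusted p = 0.0014). Also lower were fs(1)h, a bromodomain gene, at −0.36, nej, the gene of the acetyltransferase CBP, at −0.28, and mor, another SWI/SNF subunit, at −0.26, with adjusted p-values of 0.0074, 0.0474 and 0.0418 by edgeR. The calls of mor and nej were lost in 10 and 9 of 15 other settings, and that of fs(1)h without ctr replicate 2 (adjusted p = 0.0577 by edgeR). Over exons, 3 of the 27 were called lower, skd, fs(1)h and nej. There brm was −0.21 (adjusted p = 0.171 by edgeR) and mor −0.14 (adjusted p = 0.319), and neither was called.

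Targets of Polycomb repression moved in both directions. Of the 8 Hox genes, 3 were called lower over gene bodies, against 6.38% of all genes tested, and over exons only Antp was. Dfd, active in the head, had 192, 175 and 180.2 CPM in ctr and 79.6, 105, 112 and 131 CPM in TM (log2 fold change −0.77, adjusted p = 0.0009 by edgeR). Antp, active in the thorax, had 1292, 1387 and 1335 CPM in ctr and 692, 675, 832 and 1131 CPM in TM (−0.68, adjusted p = 0.0185). Scr had 66.8, 59.6 and 62.1 CPM in ctr and 38.9, 38.3, 40.9 and 55.3 CPM in TM (−0.54, adjusted p = 0.0244). In these 3 genes TM replicate 4 was the TM library nearest to ctr. The Scr call was lost in 7 of 15 other settings, with library totals alone (adjusted p = 0.0661 by edgeR) and on leaving out any 1 library other than TM replicate 4, with adjusted p-values of 0.0561 (without TM replicate 1) to 0.118 (without ctr replicate 1). That of Antp was lost with library totals alone (0.0907). Over exons, Antp was at −0.62 (adjusted p = 0.0037 by edgeR), Dfd at −0.37 (adjusted p = 0.108) and Scr at −0.37 with overlapping groups (adjusted p = 0.416). The other 5 Hox genes were not called, and the median over the 8 was 0.06.

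Of 28 other target genes, 5 were higher and 5 lower in TM, with a median of −0.05, where 4.45% of all genes tested were called higher and 6.38% lower. The 5 largest changes were those of ey, otp, ct, bap and ap, all homeobox transcription factor genes. The eye gene ey had 10.8, 9.12 and 11 CPM in ctr and 95.3, 52.7, 53.1 and 59.3 CPM in TM, a log2 fold change of 2.66 (SE 0.22, adjusted p = 6.3e-07 by edgeR). The neural gene otp rose from 7.08, 4.92 and 5.63 CPM to 27.3, 32.5, 24.0 and 20.7 CPM (2.15, adjusted p = 3.8e-05). In contrast, ct fell from 149, 143 and 112 CPM to 41.8, 38.9, 43.0 and 47.5 CPM (−1.65, adjusted p = 2.1e-07). The groups of these 3 genes do not overlap. The genes ap (1.28, adjusted p = 0.0119) and bap (1.33, adjusted p = 0.0484) rose from levels of at most 9.89 CPM in any ctr library. The call of bap was lost in 6 of 15 other settings, and that of ap without ctr replicate 2 (adjusted p = 0.0746) or TM replicate 2 (0.0605), by edgeR. Over exons, 4 of the 28 were called higher and 2 lower, against 3.11% and 3.85% of all genes. The exon value of ey was 2.37 (adjusted p = 0.0010 by edgeR), and those of otp and ct were much smaller than over gene bodies. For otp it was 0.52, from 14.9, 19.9 and 15.5 CPM in ctr to 21.4, 23.8, 28.8 and 21.9 CPM in TM, and not called (adjusted p = 0.0934 by edgeR). For ct it was −0.67 (adjusted p = 0.0102 by edgeR).

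**Figure D5:**
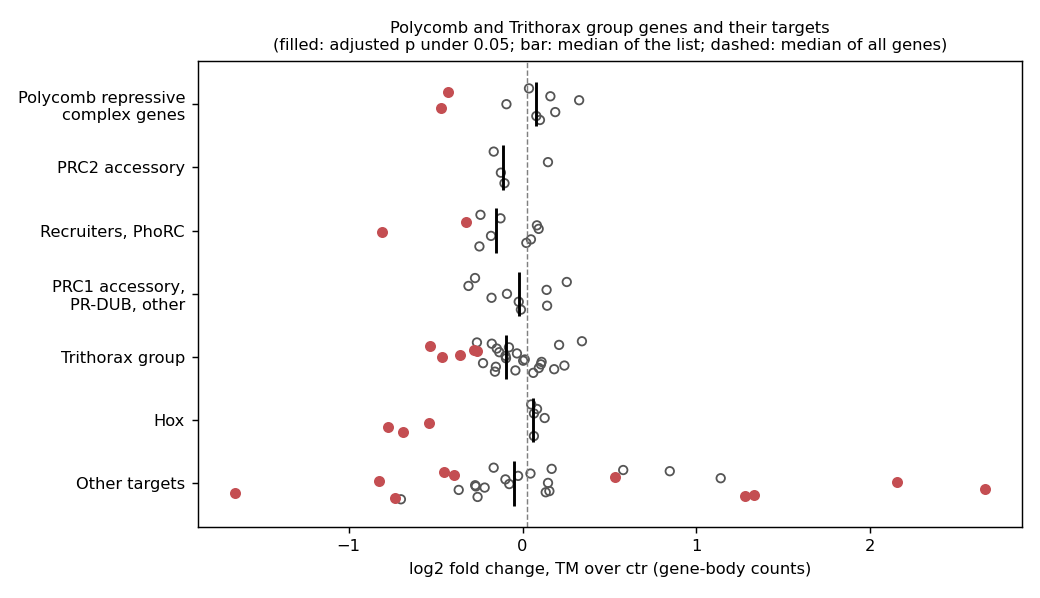
Log2 fold change, TM over ctr, in gene-body counts (x axis) for every tested gene of 7 lists (rows). Filled points have an adjusted p under 0.05, bars are the medians of the lists and the dashed line is the median of all genes, 0.03. Calls in the Polycomb, recruiter, Trithorax and Hox lists are all on the lower side, and the list of other targets holds 5 on each side.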

How the data were processed

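Gro-seq libraries of 3 ctr and 4 TM replicates, which the study calls biological, were grouped by the sample labels. The authors deposited 2 tables without normalization. For raw counts over gene bodies, Cutadapt was used for trimming and Bowtie2 2.3.3.1 in local mode for mapping to dm6, alignments of mapping quality under 3 were dropped, and sense-strand reads were counted over whole genes of Ensembl release 96 with featureCounts 1.5.3. Reads from repeated stretches are thereby mostly lost. The deposited exon table holds expected counts from TEtranscripts, all whole numbers, for genes and repeats. It shares reads that map to several places, and its strand setting is not given in the sources used here. Totals per library were 18889493 to 22200059 gene-body counts and 29391697 to 35131766 in the exon table. A count may include copies of the same molecule.

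Each table was fitted with edgeR 4.0.16 (R 4.3.3) over all 7 libraries with condition alone in the design, TMM factors, genes whose mean reached 10 counts, the robust quasi-likelihood test, Benjamini-Hochberg adjustment over all genes tested and a threshold of 0.05. Genes and repeats of the exon table were fitted together. Ratios of paralogs were formed on the log2 scale after adding a prior count of 2, and were tested by an exact permutation of the 7 libraries (two-sided, 35 arrangements), adjusted over 3 pairs. The pipeline was tested on simulated data.

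The 10 genes and the lists were chosen with earlier results of these data known. Named besides the 10 are escl, the H3K9 methyltransferase genes, every called gene of another list or the 5 with the largest change, the 3 genes most like Psc, neighbours and overlapping genes. The genes nSyb, Hml, jing and sxc were named after their values were seen. Of 17753 gene identifiers, 17626 matched a table of gene names. Sequences were read from the RefSeq Release 6 genome, of the same build as the files, at gene starts of Ensembl release 115. Protein comparisons were not run. The alternatives tried were DESeq2 1.42.0 (fold changes shrunken or not), other size factors and count filters, a replicate block, a prior count of 0.5 and leaving out each library.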

Additional observations from a re-analysis of the deposited data

How the results depend on the processing

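Psc kept its call over gene bodies in all 15 alternatives and ph-d in 14 of 15. The number of Polycomb genes called over gene bodies ranged from 1 to 4 on leaving out a library, with 4 (Psc, ph-d, Su(z)12 and Pcl) without TM replicate 4 and 1 (Psc) without ctr replicate 1, and 1 to 3 over exons. Their median log2 fold change over gene bodies stayed between 0.02 and 0.14. All genes called numbered 688 (without ctr replicate 1) to 1667 (without TM replicate 4) over gene bodies and 518 to 1361 over exons, against 1183 and 976 with all libraries. DESeq2 called 1483 and 1418. With library totals alone, 55.8% of gene-body calls were higher in TM in place of 41.1%, and 31.8% of exon calls in place of 44.7%.

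Leaving out libraries gave 1 to 5 recruiter genes called (2 in all libraries), 0 to 2 of the PRC1 accessory list (0), 2 to 8 Trithorax genes (5) and 6 to 15 other targets (10). Library totals alone gave 1 recruiter, 3 Trithorax genes and 1 Hox gene, DESeq2 size factors gave 3 Trithorax genes, and DESeq2 gave 4 recruiters with or without shrinkage. The log2 ratio differences stayed between 0.41 and 0.54 for ph-p over ph-d and between −0.76 and −0.50 for Psc over Su(z)2, where the smaller designs cannot pass the threshold, and ran from −0.33 to 0.014 for esc over escl.

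The replicate numbers do not pair the libraries. Deviations of same-numbered libraries correlated at 0.017, −0.043 and −0.049. The replicate block, in which TM replicate 4 has no partner, gave 4 Polycomb genes over gene bodies (Su(z)12, adjusted p = 0.0016, and Pcl, 0.0467, with Psc and ph-d), 1 gene of the PRC1 accessory list, 8 Trithorax genes and 1526 genes in all; the ratios within the 3 shared numbers differed by 0.50, −0.61 and −0.20.

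Signs turned for genes without a call: leaving out a library gave −0.016 to 0.12 for ph-p over gene bodies, −0.023 to 0.11 for ph-p over exons, −0.098 to 0.030 for Pc over exons, −0.073 to 0.064 for G9a and −0.037 to 0.26 for escl. Library totals alone gave −0.032 for ph-p and −0.017 for E(z) over exons and 0.040 for G9a, the replicate block 0.029 for Pc over exons, and summing the ph genes −0.088 over gene bodies and −0.13 over exons, in place of ph-p. The causes were not tested. Dixon's ratio flagged no TM library in any of 22 measures (highest ratio 0.743), where chance gives about 1.1. With only 4 TM libraries the ratio flags only a library very far from the others, so it does not show that they are alike. By the chi-square values given above, TM replicate 4 stood apart.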
